A study of Homo sapiens with 16 samples.

Results

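Long intergenic noncoding RNAs (lincRNAs) that were well expressed in U2OS cells were followed through p53 activation and RFX7 knockdown. They were the genes of biotype lincRNA whose base mean reached 200 in the authors' deposited table of the Nutlin-3a response in siControl cells. The base mean is the normalised read count averaged across all 8 libraries that a comparison used. This rule kept 125 of the 1575 lincRNA genes in that table, which holds 23353 genes in all and 11998 at a base mean of at least 200. FLG-AS1, which the rule leaves out, has the biotype antisense there, and no gene has the biotype lncRNA. All 125 were in each of the 4 deposited tables.

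Poly(A) RNA was sequenced from U2OS, an established human osteosarcoma line. Cells received a control siRNA (siControl) or one against the transcription factor RFX7 (siRFX7), and were then given 10 µM Nutlin-3a or its solvent DMSO for 24 h. Each of the 4 groups, siControl with DMSO, siControl with Nutlin-3a, siRFX7 with DMSO and siRFX7 with Nutlin-3a, had 4 libraries, 16 in all. Nutlin-3a blocks MDM2, the ubiquitin ligase that keeps p53 low, and RFX7 is a transcription factor that p53 signalling can activate. The comparisons ask which lincRNAs respond to Nutlin-3a in control and RFX7-depleted cells, and which change with RFX7 depletion under DMSO and under Nutlin-3a.

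The deposited data were 4 tables of comparisons with no value for a single library, so spread between libraries is known only through the authors' standard errors (SE), and whether libraries of 2 groups overlap was not visible. The labels do not say whether the 4 libraries of a group came from separate cultures, and the p-values may then measure technical spread only. Library depth is not in these tables. Summed base means ran from 2.79e+07 to 3.53e+07 normalised counts over the 4 deposited tables. In the siControl table the osteoblast-lineage genes COL1A1 and SPARC had base means of 39039 and 31574, RUNX2 432, ALPL 371 and COL1A2 13.2, against 5.21 for the blood marker PTPRC and 2.66 for the endothelial marker PECAM1. By the authors' deposited knockdown tables, siRFX7 left RFX7 itself at 18.6% of its control level with DMSO and at 19.4% with Nutlin-3a.

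LincRNAs are transcribed from their own loci between coding genes, and most, but not all, are capped, spliced and polyadenylated like messenger RNA. Some build nuclear bodies or act at chromatin, some bind proteins or small RNAs in the cytoplasm, and others serve mainly as the precursor of microRNAs or small nucleolar RNAs lodged in their introns. p53 activates several of them directly, among them PURPL, NEAT1 and the miR-34a host.

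One promoter is shown because PURPL had the highest Nutlin-3a response of the 125 and its promoter is the only one with 2 adjacent p53 half-sites among the 57 that could be searched. It is the 300-base RefSeq window around the start of PURPL (GRCh38.p14, chr5:27472042-27472341, plus strand), and the capitals mark the 2 half-sites, which lie 127 to 108 bases before the start.
PURPL: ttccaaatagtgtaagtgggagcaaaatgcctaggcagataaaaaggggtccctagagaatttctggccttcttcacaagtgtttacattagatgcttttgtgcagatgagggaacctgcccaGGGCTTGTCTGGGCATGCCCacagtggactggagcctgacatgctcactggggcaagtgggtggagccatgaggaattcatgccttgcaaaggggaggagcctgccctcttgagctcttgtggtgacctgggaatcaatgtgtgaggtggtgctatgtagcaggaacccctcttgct

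A RefSeq promoter of this length was matched for 57 of the 125 lincRNAs. The p53 half-site consensus, which reads the same on both strands, was found in 3 of them (5.26%), against 6.54% of all 27305 promoters. Besides PURPL the carriers were LINC00839 and OLMALINC, named here after their values were seen. Neither of these 2 passed an adjusted p of 0.05 with Nutlin-3a in siControl or siRFX7 cells (DESeq2 Wald test). In siRFX7 cells their log2 fold changes were 0.005 ± 0.06 and 0.05 ± 0.09. Adjacent half-sites stood in 5 of all 27305 promoters (0.0183%). The RFX half-site GTTGCC, searched on both strands, was in 5 of the 57 (8.77%) and in 12.2% of all promoters. The p53 half-site was not in the promoter of MIR34AHG at its RefSeq start, which lies 16567 bases from the start of the gene in GENCODE 29. A match is a description of letters, not a measured binding site.

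MicroRNAs inside the host genes are shown to say what each host carries; the libraries measured the hosts and not the mature microRNAs. Seeds, bases 2 to 8, are in capitals. The sequences are from RefSeq (GRCh38.p14).
hsa-miR-34a-5p in MIR34AHG: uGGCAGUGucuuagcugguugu
hsa-miR-22-3p in MIR22HG: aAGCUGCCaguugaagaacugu
hsa-miR-221-3p in MIR222HG: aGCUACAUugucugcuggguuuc
hsa-miR-222-3p in MIR222HG: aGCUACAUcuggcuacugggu
hsa-miR-4435 in MIR4435-2HG and in CYTOR: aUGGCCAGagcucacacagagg
The miR-221 and miR-222 arms share the seed GCUACAU, and so belong to 1 seed group, while the other 3 seeds differ. The same miR-4435 sequence lies in 2 hosts on chromosome 2, which are near-identical copies, so reads could be split between CYTOR and MIR4435-2HG and the values of both are uncertain.

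Base means of the 125 in the authors' deposited siControl table ran from 201 to 17115, with a median of 439, against a median of 1305 for all 11998 genes at 200 or more. Together they held 0.326% of the summed base means, and NEAT1 alone held 14.9% of the lincRNA part. Per kb of exon the lowest was FTX, at 10.5, and the highest AC117402.1, at 3381, with a median of 159. NEAT1 (751.8 per kb), LINC00941 (785.4 per kb) and NORAD (732.5 per kb) were close to each other on that scale, although the base mean of NEAT1 was 17115 and that of LINC00941 1064. Exonic length ran from 285 to 28487 bases with a median of 3161, and the genes lay on 23 chromosomes. The 3 just inside the limit were AC004816.1 (201.1), AC060780.1 (201.2) and AC092807.3 (204.1), and the 3 lincRNAs just outside were AC084033.3 (199.0), AC005261.1 (198.4) and AL645933.2 (197.3). GENCODE 29 holds 124 of the 125 identifiers, all except BX890604.1.

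Nutlin-3a raised many more of these lincRNAs than it lowered in siRFX7 cells. PURPL, LINC02055, MIR34AHG, IGFL2-AS1 and NEAT1 all rose at least 2-fold. At an adjusted p under 0.05 in the authors' deposited siRFX7 table, 58 of the 125 were higher and 9 lower (DESeq2 Wald test, Benjamini-Hochberg), and 58 passed in neither direction. Of all 21382 genes there, 18.7% were called higher and 20.3% lower. Among the 11998 genes at a base mean of at least 200 the shares were 24.9% and 32.7%. The median log2 fold change was 0.16 for the lincRNAs, 0.01 for all genes and -0.03 for the well-expressed genes. Most responses were small: 5 lincRNAs reached a log2 fold change of 1, 22 reached 0.5, and 2 were at -0.5 or below. When each statistic was divided by the robust SD of all statistics in the table (2.48), 16 of the 67 calls held, 15 of them higher and 1 lower. Among lincRNAs described below as higher, IGFL2-AS1, MALAT1, MIR22HG, MIR222HG, FTX, UCA1, SNHG18 and SNHG19 did not pass on that scale.

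In siControl cells, whose table chose the lincRNAs and is therefore only described, 62 were higher and 13 lower at the same adjusted p, where 18.3% of all genes were higher and 19.6% lower, and 25% and 33.8% of the well-expressed genes. The median log2 fold change was 0.18, against 0.01 for all genes and -0.03 for the well-expressed ones. The 2 Nutlin-3a tables share no library. Between these deposited tables, 62 lincRNAs were called in both, which is 82.7% of the siControl calls and 92.5% of the siRFX7 calls: 54 higher in both, 7 lower in both and 1 in opposite directions. That one was LINC00944, named here for this reason after its values were seen, at 0.24 ± 0.10 (SE) with siControl and -0.26 ± 0.11 with siRFX7. Across the 125, the log2 fold changes of the 2 tables had a Pearson r of 0.954, in which the few highest genes weigh most, and a Spearman rho of 0.910. The same overlap and correlations over all genes were not computed, so they are not shown to be particular to lincRNAs.

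**Figure D1:**
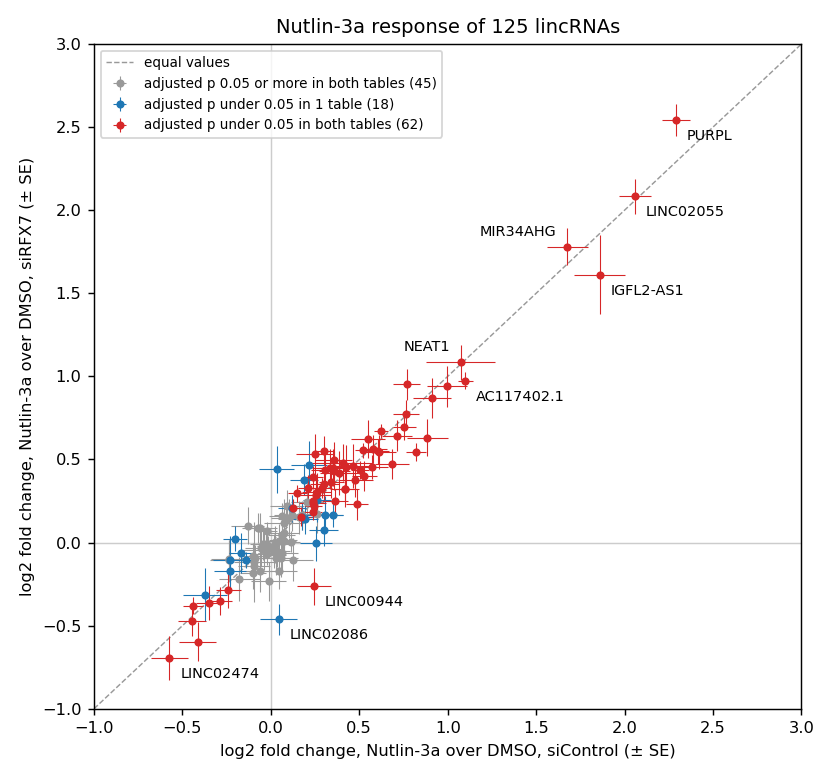
Log2 fold change of each of the 125 lincRNAs with Nutlin-3a over DMSO, in siControl cells (horizontal axis) and siRFX7 cells (vertical axis), with the authors' SE as bars and colours for the adjusted p in the tables. PURPL lies farthest out at 2.29 and 2.54, most genes lie near the line of equal values, and LINC02086 (0.04 and -0.46) and LINC00944 (0.24 and -0.26) lie below it.

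To show levels, group means were worked back from the base mean and fold change of each deposited Nutlin-3a table, taking the base mean as the average of 2 groups of 4 libraries. Values in siControl and siRFX7 cells come from tables scaled separately and are compared only within a table. In bulk RNA, fewer cells with a transcript and less of it in each cell cannot be told apart.

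Of 13 listed symbols with a known link to p53, 4 were among the 125: NEAT1, PURPL, PVT1 and MIR34AHG. These were higher in siRFX7 cells with Nutlin-3a, 4 of 4, with a median log2 fold change of 1.43. The list was drawn from knowledge of p53 targets and with results of these data known, so it is not independent evidence of direction. PURPL, a p53-induced RNA that restrains p53 itself, lies on chromosome 5 (chr5:27472292-27496401, plus strand, hg38). By the deposited tables PURPL stood at 274 normalised counts with DMSO and 1340.0 with Nutlin-3a in siControl cells, and at 151 and 882 in siRFX7 cells. Its log2 fold change was 2.29 ± 0.08 with siControl and 2.54 ± 0.10 with siRFX7 (adjusted p = 6.25e-148), the highest of the 125 in both deposited tables. MIR34AHG, the precursor gene of miR-34a, went from 210.5 to 673.1 in siControl cells and from 133.2 to 457.8 in siRFX7 cells, by 1.68 ± 0.12 and 1.78 ± 0.11 on the log2 scale of the deposited tables (siRFX7 adjusted p = 6.05e-58). PVT1, the noncoding neighbour of MYC, responded less, by 0.50 ± 0.05 and 0.44 ± 0.05 in the authors' deposited tables (siRFX7 adjusted p = 1.54e-15). TP53TG1, a lincRNA on the list that missed the base mean limit with 170.5, had 1.38 ± 0.12 and 1.30 ± 0.17 in the same tables. Not every listed gene outside the 125 rose. GAS5 passed in neither table, at 0.06 ± 0.04 and 0.09 ± 0.05. LINC-PINT was higher with siControl (0.65 ± 0.23) and did not pass with siRFX7 (0.08 ± 0.24).

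NEAT1, the RNA scaffold of nuclear bodies called paraspeckles, was the most abundant of the 125 by base mean. The values are per gene and from poly(A) RNA, so the isoforms of NEAT1 were not told apart. In siControl cells NEAT1 stood at 11028 normalised counts with DMSO and 23203 with Nutlin-3a, and in siRFX7 cells at 4278 and 9077, from the deposited tables. Both siRNA arms showed about the same step, 1.07 ± 0.20 and 1.09 ± 0.11 on the log2 scale (siRFX7 deposited table, adjusted p = 3.68e-23). MALAT1, a nuclear-speckle RNA from the neighbouring locus on chromosome 11, had smaller values of 0.41 ± 0.17 and 0.48 ± 0.11 in the deposited tables (siRFX7 adjusted p = 8.08e-05). These SEs were large for such levels. The NEAT1 SE of 0.197 in the siControl table compares with a median of 0.0389 over the 630 genes within 2-fold of its base mean, and 99.8% of those genes had a lower SE. For MALAT1 99.96% of 2667 such genes had a lower SE in that table, while NORAD was at 66.3% and AC117402.1 at 30.8%. Which libraries carry this spread was not visible in the deposited tables.

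Genes for proteins linked to paraspeckles were described by their RNA, from a list of 12 that includes SFPQ, NONO and PSPC1. In the deposited siRFX7 table all 12 were called lower with Nutlin-3a, with a median log2 fold change of -0.32. With siRFX7 under DMSO, 2 of the 12 were called higher and 4 lower, and under Nutlin-3a 3 were higher and 3 lower, in the deposited tables. Of 17 measured genes for the nuclear exosome and its adaptors, the machinery that degrades many noncoding transcripts, 0 were called higher with Nutlin-3a and 12 lower (deposited siRFX7 table, DESeq2; 8 of 17 were called in the DMSO knockdown table, 5 higher and 3 lower). Nonsense-mediated decay factors gave 1 higher and 6 lower of 10 in the siRFX7 table. For comparison, 32.7% of genes at a base mean of at least 200 and 20.3% of all genes were called lower there. The 3 lists were not matched to other genes in level and were not tested against these shares. Whether the changes in the 3 lists bear on the lincRNAs was not tested either.

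Outside the p53 list, LINC02055 was at 166.2 and 692.0 normalised counts in siControl cells without and with Nutlin-3a, and at 117.9 and 499.5 in siRFX7 cells. Its log2 fold changes of 2.06 ± 0.09 and 2.08 ± 0.10 in the deposited tables were among the highest (siRFX7 adjusted p = 1.29e-87). IGFL2-AS1, which overlaps no coding gene in GENCODE 29, went from 88.5 to 321.5 and from 34.2 to 104.6, with log2 fold changes of 1.86 ± 0.14 and 1.61 ± 0.24 in the deposited tables (siRFX7 adjusted p = 1.33e-10). AC117402.1 on chromosome 3 was the most abundant per kb and went from 2932 to 6284 and from 2514 to 4936, with 1.10 ± 0.04 and 0.97 ± 0.05 (siRFX7 deposited table, adjusted p = 2.49e-80). The leading responders thus spanned low and high abundance.

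**Figure D2:**
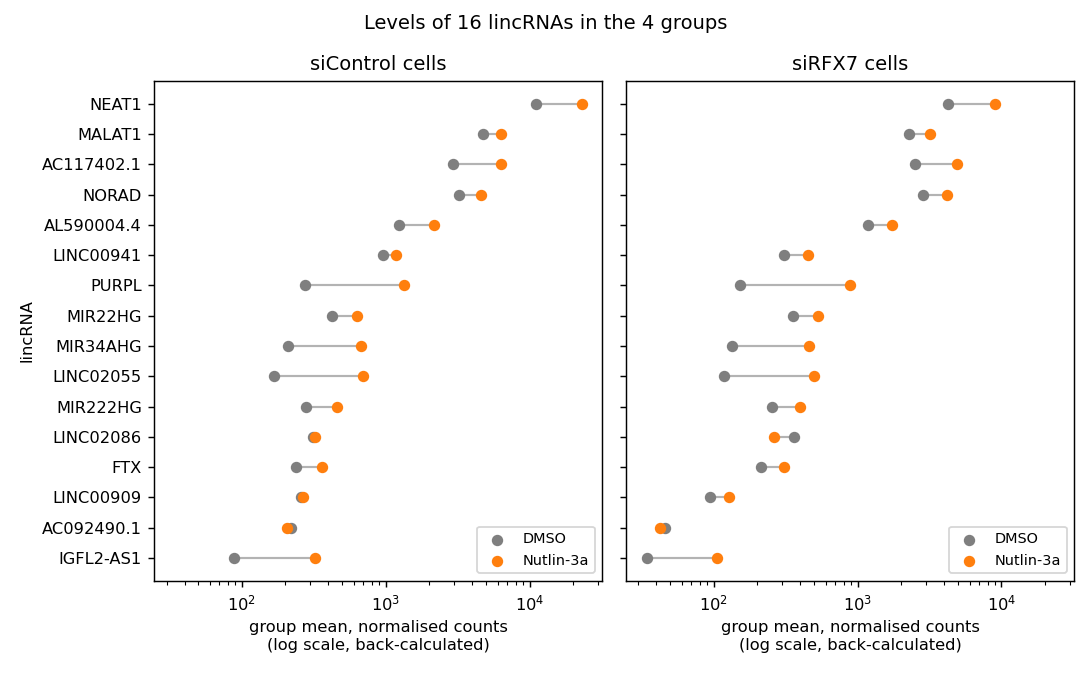
Group means in normalised counts (log scale) of 16 lincRNAs, worked back from the deposited tables, in siControl cells (left) and siRFX7 cells (right), with DMSO in grey and Nutlin-3a in orange. The longest steps belong to PURPL (274 to 1340.0 with siControl) and LINC02055 (166.2 to 692.0); the LINC02086 points sit nearly together at 314.3 and 324.2 with siControl and are reversed at 361.2 and 262.2 with siRFX7.

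Of the 125, 9 were counted as carrying a microRNA of the RefSeq table. This count left out the chromosome of PVT1, so any hosts there, PVT1 included, are missing from it. Of the 9, 4 were higher and none lower with Nutlin-3a in siRFX7 cells (median log2 fold change 0.12). The 4 were all among the 6 on the list of microRNA host symbols. The 3 of these 9 outside that list did not pass: AC020916.1 stood at 0.12 ± 0.14, MUC20-OT1 at -0.14 ± 0.09 and CYTOR at -0.04 ± 0.05 in the deposited siRFX7 table. MIR22HG, which carries the miR-22 sequence printed above, had 0.58 ± 0.08 and 0.56 ± 0.09 in the deposited siControl and siRFX7 tables (siRFX7 adjusted p = 4.63e-10). MIR222HG, host of the 2 arms with the shared seed, had 0.72 ± 0.08 and 0.64 ± 0.09 (siRFX7 deposited table, adjusted p = 1.14e-10). FTX, a long transcript of the X-inactivation centre that also carries microRNAs, had 0.61 ± 0.10 and 0.55 ± 0.10 (siRFX7 deposited table, adjusted p = 4.25e-07). MIR4435-2HG stood at -0.14 ± 0.05 and -0.10 ± 0.05 and MIR4458HG at 0.02 ± 0.10 and -0.01 ± 0.11 in the same tables, so the hosts did not move as one.

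Small nucleolar RNA hosts carry in their introns the guides of ribosomal RNA modification, and 7 of the listed hosts were among the 125. Of the 7, 2 were higher and 0 lower with Nutlin-3a in siRFX7 cells (DESeq2, deposited table), with a median log2 fold change of 0.16, the same as over all 125. Hosts of other biotypes are not in this count, and SNHG1 (-0.48), SNHG10 (-0.70), SNHG17 (-0.41), SNHG7 (-0.34) and SNHG12 (-0.23), chosen after their values were seen, were called lower in that table. SNHG14 was called higher (0.54), and others, among them GAS5, SNHG3, SNHG5, SNHG6, SNHG16 and ZFAS1, did not pass. The 2 lincRNA hosts called higher were SNHG18, host of SNORD123, at 0.53 ± 0.12 (adjusted p = 5.48e-05), and SNHG19, host of SNORD60, at 0.29 ± 0.11 (adjusted p = 0.028) in the authors' deposited siRFX7 table. SNHG8 stood at 0.16 ± 0.07, EPB41L4A-AS1 at 0.16 ± 0.09, SNHG4 at 0.02 ± 0.07, SNHG15 at -0.19 ± 0.09 and CYTOR at -0.04 ± 0.05 there, none of them passing. CYTOR stands in the list although no small nucleolar RNA is annotated inside it in GENCODE 29.

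Among cytoplasmic RNAs, NORAD, which binds Pumilio proteins and guards chromosome stability, stood at 3211 and 4610.2 normalised counts without and with Nutlin-3a in siControl cells, and at 2846 and 4186 in siRFX7 cells. Its log2 fold changes in the deposited tables were 0.52 ± 0.05 and 0.56 ± 0.05 (siRFX7 adjusted p = 6.93e-33). UCA1, first described in bladder cancer, had 0.42 ± 0.08 and 0.32 ± 0.11 (siRFX7 deposited table, adjusted p = 0.00836). With PVT1 this made 3 of the 4 listed cytoplasmic RNAs kept by the selection rule higher and none lower in siRFX7 cells. Listed RNAs outside the rule are not in this count. Of these, DANCR (-0.18 ± 0.04, adjusted p = 2.72e-05) and H19 (-0.67 ± 0.18, adjusted p = 0.000591) were called lower in the deposited siRFX7 table (DESeq2 Wald test). OIP5-AS1 (-0.06 ± 0.05) and TINCR (-0.13 ± 0.27) did not pass there. JPX, an activator of X inactivation, was the 1 of 4 listed nuclear RNAs kept by the rule that did not pass. It stood at -0.08 ± 0.08 in the deposited siRFX7 table.

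The lincRNAs that fell with Nutlin-3a did so by less than the leaders rose. LINC02474 had the lowest values, -0.57 ± 0.10 with siControl and -0.69 ± 0.13 with siRFX7 (siRFX7 deposited table, adjusted p = 9.11e-07). In the deposited siRFX7 table LINC01515 followed at -0.60 ± 0.12 (adjusted p = 2.28e-06), LINC00221 at -0.47 ± 0.09 (adjusted p = 1.06e-06), LINC02086 at -0.46 ± 0.09 (adjusted p = 5.84e-06) and AC125807.2 at -0.38 ± 0.05 (adjusted p = 7.05e-13). Of these 5, AC125807.2 alone passed after division by the robust SD. LINC01963 was among the 5 lowest in the siControl table at -0.37 ± 0.12 and stood at -0.31 ± 0.16 in the siRFX7 table, where it did not pass.

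RFX7 knockdown moved lincRNAs in both directions, and the larger steps were downward: AC092490.1, LINC00941, LINC00909, IGFL2-AS1 and NEAT1 all fell to about 50% of control or below in DMSO. Under DMSO, 30 of the 125 were called higher and 32 lower in the authors' deposited knockdown table. Of all 19511 genes there, 19.9% were higher and 17.5% lower, and of the well-expressed genes 27.8% and 23.5%. Under Nutlin-3a 20 were called higher and 32 lower, where 17.2% of all 20335 genes were higher and 15.4% lower, and 25.4% and 21.5% of the well-expressed genes. The median log2 fold change was -0.01 in DMSO and -0.05 in Nutlin-3a, against -0.00 and -0.01 for all genes. The well-expressed genes, whose median base mean is higher than that of the lincRNAs, are not matched in level. After division by the robust SD of the statistics (2.49 and 2.23), 5 of the 62 calls held under DMSO and 8 of the 52 under Nutlin-3a. Those 5 were AC092490.1, LINC00941, LINC00909, FOXD2-AS1 and MIR4435-2HG. The 8 were AC092490.1, LINC00941, IGFL2-AS1, FOXD2-AS1, SNHG19, AC125807.2, AC022784.1 and MIR4435-2HG.

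The 2 knockdown tables share no library. Between these deposited tables, 43 lincRNAs were called in both, 69.4% of the DMSO calls and 82.7% of the Nutlin-3a calls, with 25 lower in both, 18 higher in both and 0 in opposite directions by DESeq2. The 25 had log2 fold changes of -1.90 to -0.20 under DMSO, with a median of -0.52, and the 18 had 0.17 to 0.50, with a median of 0.30. Across all 125 the Pearson r between the tables was 0.927 and Spearman's rho 0.885, with the same siRNAs in both. Neither the overlap nor the correlations were computed over all genes, so they are not shown to be particular to lincRNAs.

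**Figure D3:**
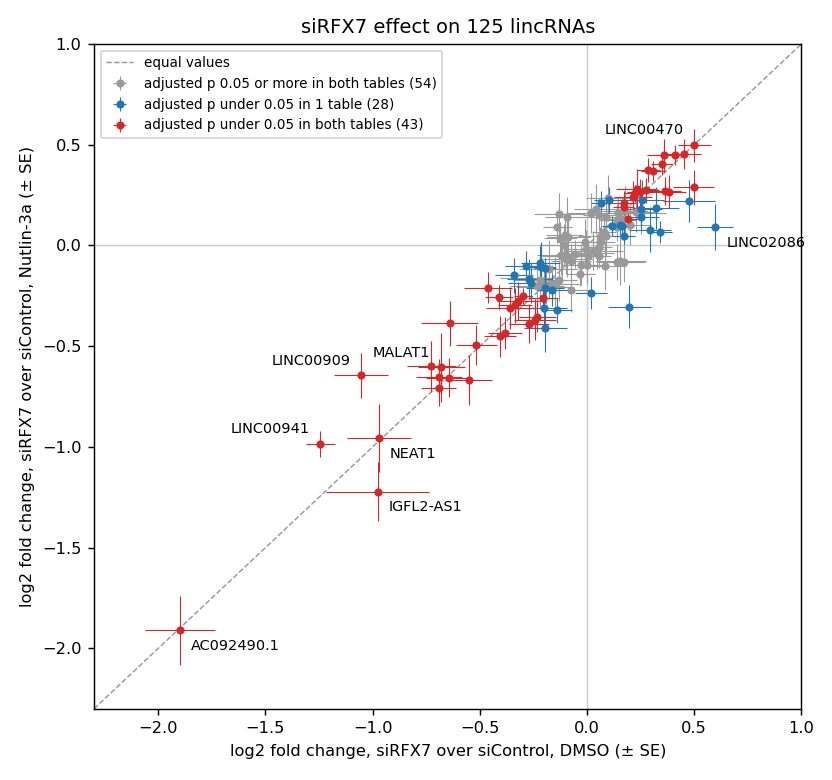
Log2 fold change of each of the 125 lincRNAs with siRFX7 over siControl, under DMSO (horizontal axis) and Nutlin-3a (vertical axis), with the authors' SE as bars and colours for the adjusted p in the tables. AC092490.1 lies alone at -1.90 and -1.91, and LINC02086 lies off the line of equal values at 0.60 and 0.09.

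AC092490.1, a clone-named lincRNA on chromosome 12 (chr12:8788257-8795789, plus strand, hg38), was lowest in both knockdown tables. Within the siControl table AC092490.1 was at 220 normalised counts with DMSO and 206 with Nutlin-3a, and within the siRFX7 table at 45.6 and 42.0. The siRFX7 level was 26.8% of control under DMSO and 26.6% under Nutlin-3a, at log2 fold changes of -1.90 ± 0.16 and -1.91 ± 0.17 in the deposited tables (adjusted p = 4.23e-30 and 2.13e-27). It did not pass for Nutlin-3a in siRFX7 cells (-0.12 ± 0.24).

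LINC00941, on chromosome 12 as well (chr12:30755167-30802602, plus strand, hg38), fell to 42.2% of control under DMSO and 50.5% under Nutlin-3a. Its log2 fold changes in the deposited tables were -1.24 ± 0.07 and -0.99 ± 0.07 (adjusted p = 1.57e-71 and 6.57e-48). LINC00909 fell to 48.2% and 64.0% of control, by -1.05 ± 0.13 and -0.64 ± 0.11 in the same tables (adjusted p = 2.45e-15 and 1.6e-07). IGFL2-AS1 fell to 50.8% and 42.9%, by -0.98 ± 0.24 and -1.22 ± 0.15 (deposited tables, adjusted p = 0.000271 and 3.98e-15), so its Nutlin-3a response started from a lower level in siRFX7 cells. FOXD2-AS1, next to the forkhead gene FOXD2, fell to 61.9% and 61.3%, by -0.69 ± 0.08 and -0.71 ± 0.09 (deposited tables, adjusted p = 2.74e-15 and 6.78e-14).

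NEAT1 fell to 51.0% of control under DMSO and 51.5% under Nutlin-3a, by -0.97 ± 0.15 and -0.96 ± 0.17 in the deposited knockdown tables (adjusted p = 1.16e-09 and 1.3e-07). MALAT1 fell to 62.4% and 65.7%, by -0.68 ± 0.11 and -0.61 ± 0.17 (deposited tables, adjusted p = 8.88e-09 and 0.00229). For NEAT1 99.8% and 99.5% of genes of like level had a lower SE in these tables, and for MALAT1 99.2% and 99.9%; the part of this spread in the result was not tested. Neither gene passed in either knockdown table after division by the robust SD. FTX and JPX, the other 2 nuclear RNAs, passed in neither.

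PURPL was lower with siRFX7 in both deposited knockdown tables, by -0.46 ± 0.11 with DMSO and -0.21 ± 0.08 with Nutlin-3a (adjusted p = 0.000165 and 0.0202). MIR34AHG did not pass in either, at -0.27 ± 0.14 and -0.16 ± 0.10, and LINC02055 stood at -0.10 ± 0.12 and -0.07 ± 0.08. PVT1 was higher under DMSO in the deposited table, at 0.16 ± 0.06 (adjusted p = 0.0159). The p53-linked lincRNAs thus split into 2 lower, 1 higher and 1 not passing under DMSO, although all 4 were higher with Nutlin-3a.

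Among small nucleolar RNA hosts, SNHG19 fell under both treatments, by -0.69 ± 0.11 and -0.65 ± 0.09 in the deposited tables (adjusted p = 1.84e-09 and 1.4e-11), to 62.0% and 63.6% of control. SNHG8, host of SNORA24, fell under Nutlin-3a by -0.32 ± 0.06 (deposited table, adjusted p = 2.27e-06) and stood at -0.14 ± 0.07 under DMSO. CYTOR was higher by 0.19 ± 0.05 and 0.13 ± 0.05 in these tables (adjusted p = 0.000292 and 0.0311), with the reservation on its copy given above. The other 4 hosts did not pass in either.

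Increases with siRFX7 were smaller. In the deposited tables LINC00470 had 0.50 ± 0.08 under DMSO and 0.50 ± 0.08 under Nutlin-3a (adjusted p = 1.73e-09 and 1.42e-08). LINC00460 had 0.45 ± 0.08 and 0.45 ± 0.07 (deposited tables, adjusted p = 1.37e-07 and 1.3e-08), and LINC00668 0.36 ± 0.08 and 0.45 ± 0.08 (deposited tables, adjusted p = 5.42e-05 and 3.26e-07). MIR4435-2HG, the host of miR-4435, had 0.41 ± 0.04 and 0.45 ± 0.05 (deposited tables, adjusted p = 2.58e-18 and 9.24e-19). MYOSLID, a smooth-muscle lincRNA, had 0.50 ± 0.10 and 0.29 ± 0.09 (deposited tables, adjusted p = 3.07e-06 and 0.00528), and LUCAT1, a stress-induced lincRNA, 0.47 ± 0.12 under DMSO (deposited table, adjusted p = 0.000434). NORAD was higher by 0.22 ± 0.05 and 0.26 ± 0.04 (deposited tables, adjusted p = 7.09e-05 and 1.94e-08). None of these but MIR4435-2HG passed in either table after division by the robust SD.

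The start of 33 of the 124 annotated lincRNAs lay within 5 kb of the start of a protein-coding gene, and 25 of them lay within 1 kb of one on the opposite strand, as in transcription from a shared promoter region. Of these 25, 4 were called higher and 10 lower in the deposited DMSO knockdown table, with a median log2 fold change of -0.13, and of the other 99, 26 were higher and 22 lower, with a median of 0.00. Both genes of a pair were called in 8 of the 25 pairs under DMSO, 7 in opposite directions and 1 in the same direction, and in 6 under Nutlin-3a, 6 in opposite directions and 0 in the same. Over all 25 pairs, called or not, 12 had the same sign under DMSO and 9 under Nutlin-3a. The Pearson r across the 25 was -0.32 and -0.31, so opposite movement was not a rule of the pairs. For the siRFX7 Nutlin-3a response both were called in 8 pairs, 5 in the same direction and 3 in opposite directions. Pairs were not tested as a group.

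In the deposited tables AC022784.1 rose with siRFX7, by 0.35 ± 0.05 under DMSO and 0.41 ± 0.06 under Nutlin-3a (adjusted p = 7.79e-10 and 1.43e-11). Its neighbour PPP1R3B, a glycogen-targeting subunit of protein phosphatase 1 whose start is 121 bases away, fell by -0.55 ± 0.10 and -0.43 ± 0.09 in the same tables (adjusted p = 8.34e-07 and 3e-05). SNHG19 and TRAF7, a ubiquitin ligase gene 340 bases away, also moved apart, with TRAF7 at 0.19 ± 0.04 and 0.12 ± 0.04 (deposited tables, adjusted p = 7.66e-05 and 0.0136). The single pair that moved together under DMSO was EIF3J-DT and the translation initiation gene EIF3J, at -0.32 and -0.20 ± 0.04, named after its values were seen.

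LINC00941, by contrast, fell without its neighbour CAPRIN2, whose start is 216 bases from the GENCODE start of LINC00941. CAPRIN2 stood at -0.04 ± 0.06 and 0.08 ± 0.07 in the deposited knockdown tables (adjusted p = 0.684 and 0.424). The RefSeq start of LINC00941 lies 40513 bases from its GENCODE start. Which start is used in these cells was not tested, so a promoter region shared with CAPRIN2 is uncertain. ZNF407, 638 bases from LINC00909, stood at 0.12 ± 0.06 and 0.06 ± 0.07, passing in neither. FOXD2, 1376 bases from FOXD2-AS1, was lower with its neighbour under DMSO by -0.59 ± 0.19 (deposited table, adjusted p = 0.00605) and stood at -0.45 ± 0.22 under Nutlin-3a. Whether reads were counted by strand is not given in the sources used here. Of the 124, 12 overlap a coding gene on the same strand and 19 one on the opposite strand, so their counts could hold reads of that gene; the other 96 overlap none, and 22 of those 96 were higher and 26 lower under DMSO.

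**Figure D4:**
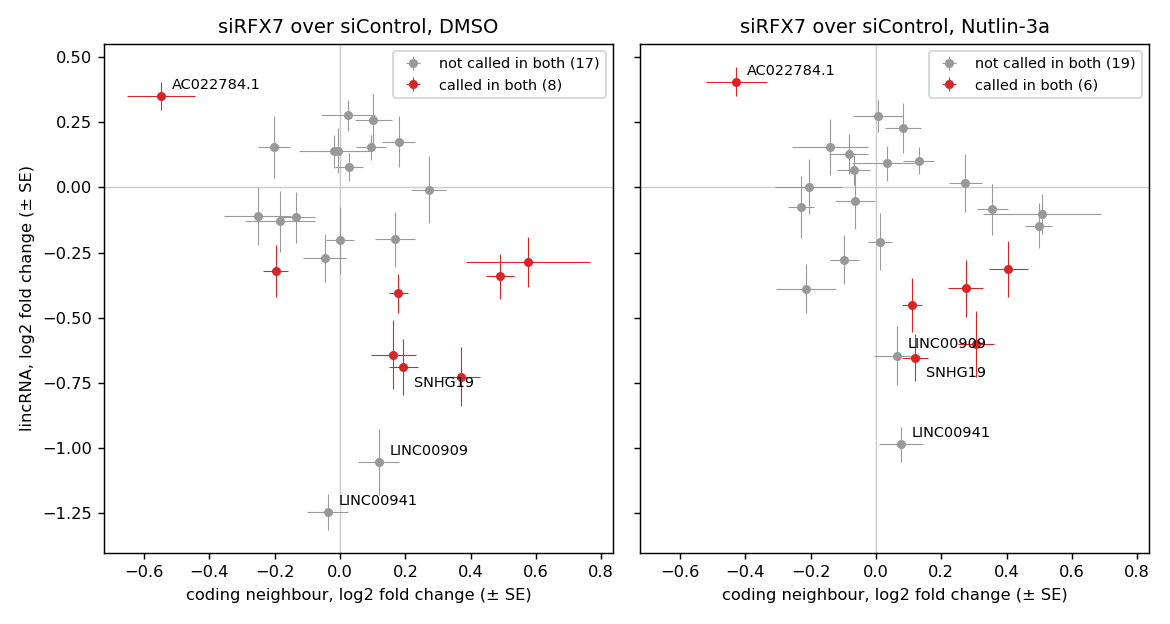
Log2 fold change with siRFX7 over siControl of 25 lincRNAs (vertical axis) against that of the coding gene that starts within 1 kb on the opposite strand (horizontal axis), under DMSO (left) and Nutlin-3a (right), with the authors' SE as bars; red points are pairs with both genes called (8 and 6). The red points sit in the quadrants of opposite sign in 7 of 8 pairs under DMSO and 6 of 6 under Nutlin-3a, while LINC00941 is low at -1.24 and -0.99 with its neighbour near 0. The pairing of LINC00941 rests on its GENCODE start, and its RefSeq start lies 40513 bases from there.

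Short sequence words were searched in the spliced transcripts of GENCODE 29. They are shown because each had been picked from these same fold changes in an earlier analysis, as more frequent in genes that fell (GTATCTA) or rose (GACGTA) with siRFX7, so nothing here is independent of that choice. GTATCTA stood in 12 of 124 lincRNAs (9.68%) and in 15.3% of 11997 well-expressed genes. Of the 12, 4 were called lower and 3 higher under DMSO in the deposited table, and their median log2 fold change was -0.02, the same as that of the other 112. The windows below, with the word in capitals, are from LINC00909, which fell, and MIR4435-2HG and AC125807.2, which rose. They are examples and do not stand for the balance of the 12. The other 3 that fell under DMSO, AC092490.1 (-1.90), LINC01270 (-0.65) and LINC00476 (-0.64), are not shown. The other 1 that rose, LUCAT1 (0.47), is not shown either. AC092490.1, the lowest in both knockdown tables, held 5 matches in 1 of its 3 transcripts.
LINC00909: ttggaattgagGTATCTAatagagaactg
MIR4435-2HG: accaagctcctGTATCTActggaaaatgg
AC125807.2: acctacctcgcGTATCTAcagtgcctagc
The 3 flanks differ around the shared word. GACGTA was in 18 of 124 lincRNAs (14.5%) and in 15.7% of the well-expressed genes. Of these 18, 9 were called higher and 2 lower under DMSO and 6 higher and 1 lower under Nutlin-3a in the deposited tables, with medians of 0.18 and 0.13, against 21 higher and 30 lower under DMSO among the other 106, with a median of -0.08. Longest transcripts were longer in the lincRNAs with GACGTA, with a median of 3402 bases against 2223, and in those with GTATCTA, with 3022 against 2223, and the part of length was not tested.

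Whether the RFX7 dependence changes when p53 is active was tested by subtracting the siRFX7 effect with DMSO from that with Nutlin-3a, in a normal test on the 2 deposited log2 fold changes with Benjamini-Hochberg adjustment over 19346 genes. Of the 125, 0 had a higher difference and 2 a lower one at an adjusted p under 0.05, and 9 had an unadjusted p under 0.05. Over all genes 0.217% were higher and 0.827% lower, and over the well-expressed genes 0.342% and 1.28%. For nearly all lincRNAs a difference was therefore not detectable with SEs of 0.06 to 0.28.

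LINC02086 (chr17:48646923-48707346, plus strand, hg38) was higher with siRFX7 under DMSO, by 0.60 ± 0.08 (deposited table, adjusted p = 2.34e-11), and stood at 0.09 ± 0.11 under Nutlin-3a. The difference was -0.51 ± 0.14 (adjusted p = 0.0358). Put the other way, LINC02086 went from 314.3 to 324.2 normalised counts with Nutlin-3a in siControl cells and from 361.2 to 262.2 in siRFX7 cells. AL590004.4 on chromosome 6 (chr6:3904920-3911979, minus strand, hg38) rose with Nutlin-3a from 1236 to 2183 in siControl cells and from 1188 to 1736 in siRFX7 cells. Its siRFX7 effect was 0.34 ± 0.06 under DMSO (deposited table, adjusted p = 1.15e-08) and 0.07 ± 0.05 under Nutlin-3a, with a difference of -0.27 ± 0.08 (adjusted p = 0.0458). Both differences missed an adjusted p of 0.01. LINC00944, the lincRNA with opposite Nutlin-3a responses, was just outside with -0.50 ± 0.15 (adjusted p = 0.0513), and it passed (0.0401) after division by the robust SD.

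**Figure D5:**
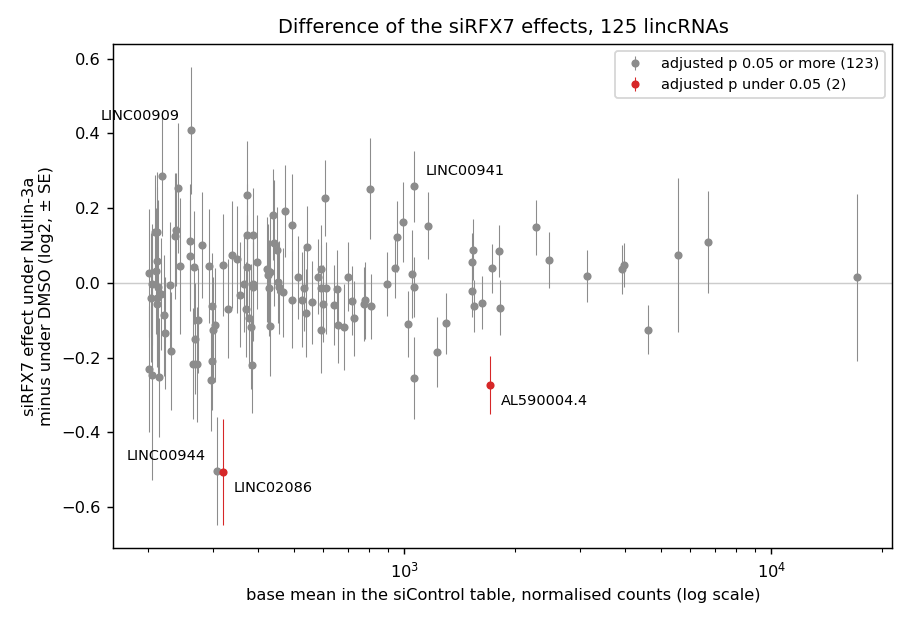
Difference of the siRFX7 effects (under Nutlin-3a minus under DMSO, log2, with SE) of each of the 125 lincRNAs against its base mean in the siControl table (log scale), with the 2 that passed in red. LINC02086 at -0.51 and AL590004.4 at -0.27 lie below 0, beside LINC00944 at -0.50, which did not pass.

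For the lincRNAs with the largest responses the difference was small beside its error. For NEAT1 it was 0.01 ± 0.22, for AC092490.1 -0.01 ± 0.23, for MIR34AHG 0.11 ± 0.17, for LINC02055 0.03 ± 0.15 and for PURPL 0.25 ± 0.13 (adjusted p = 0.771). LINC00941 at 0.26 ± 0.10 and LINC00909 at 0.41 ± 0.17 had differences in the opposite direction and did not pass (adjusted p = 0.275 and 0.461).

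Long noncoding genes of other biotypes at the same base mean limit, 162 in number, were counted beside the lincRNAs. With Nutlin-3a 61 of the 162 were higher and 24 lower in the deposited siRFX7 table, with a median log2 fold change of 0.12. With siRFX7 under DMSO 25 were higher and 52 lower, with a median of -0.08. The lincRNAs with a clone-based name were 39, and of these 13 were higher and 2 lower with Nutlin-3a in siRFX7 cells, with a median of 0.10, against 45 higher and 7 lower of the other 86, with a median of 0.21. These counts were not tested against each other.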

How the data were processed

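Per the submitters' processing notes, reads were handled with bcl2fastq 2.19.1.403, FastQC 0.11.9, Trimmomatic 0.39, cutadapt 2.10, SAMtools 1.10 and Picard on hg38, counted with featureCounts 1.6.5 and compared with DESeq2 1.20.0. The aligner, the annotation and the strand setting of the counting are not given in the sources used here; the labels' protocols name a stranded poly(A) library kit. The authors deposited, per the file headers, a base mean (a signal of normalised counts averaged over the libraries of a comparison), a log2 fold change and its SE on the log2 scale. They also deposited a Wald statistic, which is a score, and p-values with adjusted p-values. The direction of each table was set from the signs of RFX7, CDKN1A and MDM2. Recomputing the statistic and both p-values from the deposited log2 fold changes gave gaps of at most 1.85e-13.

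The lincRNAs, gene lists and tests were chosen with earlier results of these data known. Named lincRNAs were those in a role list, the 5 highest and 5 lowest per table (called ones in the 3 tested tables), those with a called difference, the 3 on each side of the base mean limit, and nearest coding genes within 5 kb of those named by value. Differences were computed with Python 3.11.15, pandas 2.3.3, numpy 2.4.6 and SciPy 1.17.1 and were tested on simulated data. Positions are GENCODE 29 (GRCh38). Promoters and microRNAs are RefSeq. One transcript window is not reported here.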

Additional observations from a re-analysis of the deposited data

Results flagged for a closer look

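The siRFX7 effect differed between Nutlin-3a and DMSO, by the test of the difference itself, in 2 of the 125 lincRNAs (1.6%). This is near the share of 1.63% among well-expressed genes, with 1.04% of all genes, so the count does not set the lincRNAs apart. Both missed an adjusted p of 0.01. For LINC02086 the difference was -0.51 on the log2 scale (adjusted p = 0.0358), and for AL590004.4 it was -0.27 (adjusted p = 0.0458). Both stood below 0: siRFX7 cells had more of either RNA under DMSO, and the values under Nutlin-3a were nearer to control.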

How the results depend on the processing

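Limits. The tables hold group comparisons, so no library could be left out. No paired analysis was possible because the deposited tables hold no value of a single library. Depth per library is not in these tables; with SEs of 0.04 to 0.24, small changes of low lincRNAs were not detectable.

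Counts of called lincRNAs are given for the siRFX7 Nutlin-3a response (67), the siRFX7 effect under DMSO (62) and under Nutlin-3a (52), their difference (2) and the siControl Nutlin-3a response (75, with alternatives chosen after seeing the data), in this order. A log2 size of at least 0.5 as well gave 24, 15, 11, 1 and 25. A base mean of at least 500, which leaves 54 lincRNAs, gave 32, 33, 31, 1 and 38. A base mean of at least 100, with 220 lincRNAs, gave 108 for the siRFX7 response, 86 for the effect under Nutlin-3a and 115 for siControl. Adding the other long noncoding biotypes, 287 genes, gave 152, 139, 124 and 171 for the 4 tables. Dividing each statistic by its robust SD gave 16 for the siRFX7 response, 5 and 8 for the effects under DMSO and Nutlin-3a, and 22 for siControl. On that scale the difference was called for LINC02086, AL590004.4 and LINC00944. The cause of the wide statistics was not tested. At an adjusted p of 0.01 the difference gave 0 (normal test, 9 at an unadjusted p under 0.05), and the other comparisons 60, 48, 42 and 62, within 1.5 times. Taking the difference from the Nutlin-3a tables gave 2, with adjusted p of 0.0354 for LINC02086 and 0.0493 for AL590004.4. No named lincRNA reversed in any of these.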
